A study of Mus musculus with 32 samples.

Results

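The circadian clock genes Per1, Per2, Per3, Arntl, Clock, Nr1d1 and Nr1d2 and the PAR bZIP genes Dbp, Tef and Hlf were followed across frontal cortex expression arrays of ethanol-drinking and control mice. Every probe whose gene symbol was one of these 10 was taken from the array table, which gave 17 probes of 25697. Of the 17 probes, 11 probes of 9 genes were tested, because their signal passed Illumina's detection test at p = 0.01 on 24 or more of the 32 arrays, as that of 10187 probes in all did. Female F1 mice of C57BL/6J and FVB/NJ were studied, 20 that drank ethanol and 12 untreated controls, with 1 array per mouse. The ethanol mice chose between 20% ethanol and water for 3 hours a day, starting 3 hours into the dark phase, over 20 days. Brains were taken 20 hours after the last session by the protocol, a delay that is given elsewhere as 24 hours. The hour at which each mouse was killed was not known here. The sample labels name 1 direction of the cross and the methods name both, so mice of the 2 directions could not be separated here. The tissue was the dorsal part of a 2 mm coronal slice of the most rostral brain, cut free of the olfactory bulbs, so each value is an average over all cells of that slice, and fewer cells of a type cannot be told apart from less RNA per cell.

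The 32 arrays lay on 4 chips of 8. Chips 1 and 2 held only ethanol mice, chip 4 held only controls, and chip 3 held 4 of each, with ethanol mice at the odd positions (A, C, E, G) and controls at the even ones (B, D, F, H). Treatment was therefore compared over all arrays, within chip 3, and between chips 1 and 2 and chip 4. Within chip 3 treatment and odd or even position cannot be told apart, and between the other chips treatment and chip cannot be told apart. The number of probes detected per array was 10644 to 11544 in ethanol mice and 9480 to 11413 in controls, and control C66 had the lowest number and the lowest median signal, 146 intensity units. Markers of olfactory bulb were present although the bulbs had been cut away: the mean level of 6 tested markers ranged from 7.91 to 9.81 over all arrays, on the log2 scale used throughout. On chip 3 it was 8.97 to 9.22 in ethanol mice and 8.07 to 8.71 in controls, with no overlap. On the other chips the ranges were wide and overlapped. The mean level of 10 oligodendrocyte markers on chip 3 was 10.12 to 10.30 in ethanol mice and 10.18 to 10.93 in controls.

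The molecular clock is a feedback loop. CLOCK and ARNTL (also called BMAL1) bind E-box sequences and turn on the Per genes, Nr1d1, Nr1d2, Dbp and Tef. PER proteins feed back to block CLOCK and ARNTL, and NR1D1 and NR1D2 (the REV-ERBs) repress Arntl through ROR response elements. DBP, TEF and HLF are PAR bZIP activators that bind D-box sequences and carry the rhythm to output genes. In mouse tissues, Arntl RNA peaks at nearly the opposite time of day to Nr1d1 and Dbp RNA. Per1 also responds to neuronal activity and glucocorticoids.

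Sequence motifs of the loop were looked for in the 250 bases before each start site that RefSeq annotates on GRCm38.p6, on both strands: the E-box CACGTG, the D-box TTATGTAA or TTACGTAA, and the letters AGGTCA that form the core of a ROR response element. Windows were at hand for 9 of the 10 genes, 14 windows in all. The E-box was in 3 of the 14 windows, 1 of Per1 and both of Tef, against 6.02% of 32851 windows of all genes. The D-box was in 1 window, that of Per3, which held it at 2 places, against 0.931% of all windows. AGGTCA was in 3 windows, of Per1, Clock and Nr1d2, against 14.0% of all windows. The windows of Per1, Per3 and Nr1d2 are shown because these genes carry the comparisons that follow, with the motif letters in capitals.
Per1, chr11:69098699-69098948, plus strand: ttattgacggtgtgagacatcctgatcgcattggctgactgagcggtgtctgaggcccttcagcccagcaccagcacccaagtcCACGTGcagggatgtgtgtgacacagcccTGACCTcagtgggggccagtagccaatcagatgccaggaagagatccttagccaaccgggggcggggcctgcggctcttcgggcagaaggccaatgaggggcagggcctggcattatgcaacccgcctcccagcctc
Per3, chr4:151044666-151044915, minus strand: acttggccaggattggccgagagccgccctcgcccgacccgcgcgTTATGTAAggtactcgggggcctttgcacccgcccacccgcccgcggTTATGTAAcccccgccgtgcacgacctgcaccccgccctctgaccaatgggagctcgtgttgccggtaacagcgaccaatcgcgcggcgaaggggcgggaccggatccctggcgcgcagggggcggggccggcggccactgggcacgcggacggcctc
Nr1d2, chr14:18239107-18239356, minus strand: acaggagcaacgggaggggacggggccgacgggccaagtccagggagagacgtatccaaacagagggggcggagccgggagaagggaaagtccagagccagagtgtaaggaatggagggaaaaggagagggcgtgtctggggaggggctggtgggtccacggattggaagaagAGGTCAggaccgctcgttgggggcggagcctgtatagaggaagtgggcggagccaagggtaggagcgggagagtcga
In the Per1 window the E-box lay 166 bases before the start and AGGTCA lay 137 bases before it, on the opposite strand. In the Per3 window the 2 D-boxes lay 205 and 158 bases before the start, and in the Nr1d2 window AGGTCA lay 77 bases before it. A match says only that the letters are there.

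Per1 and Per2 were each read by a pair of probes that passed, which gives a check within the gene. The first 30 of the 50 bases of each are shown because the results on both genes rest on them.
Per1 ILMN_2813487: cagagtggaagttctcagccccatttggag
Per1 ILMN_2813484: gggcgggtcttcggttaaggttgctgacaa
Per2 ILMN_2987863: gccaagcatccagccctgttttctttagaa
Per2 ILMN_2987862: gctctcagagtttgtgcgatgatgattcgt
The Per1 probes lie at bases 4281 to 4330 and 4341 to 4390 of the transcript and the Per2 probes at 5533 to 5582 and 5631 to 5680, so no bases are shared. Over the 20 ethanol arrays the 2 Per1 probes correlated at Pearson's r = 0.84 (permutation p = 1e-05, the smallest the permutations can give; Spearman's rho = 0.77, permutation p = 0.00012), and the 2 Per2 probes at r = 0.82 (permutation p = 1e-05; rho = 0.80, permutation p = 3e-05). Over the 12 controls r was 0.66 for Per1 (permutation p = 0.0196; rho = 0.64, permutation p = 0.0306) and 0.72 for Per2 (permutation p = 0.007; rho = 0.56, permutation p = 0.0634).

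The other 6 member probes were not tested. The single Hlf probe was detected on 0 of the 32 arrays, so nothing is said of the third PAR bZIP gene. The third Per2 probe was detected on 2 arrays, the other Clock probes on 1 and 0, and the second Nr1d2 probe on 1. The second Tef probe was detected on 12 arrays, 5 of ethanol mice and 7 of controls. It lies at bases 19 to 68 of its transcript, whereas the tested Tef probe lies at bases 4126 to 4175.

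Per1 was the member that differed most between ethanol and control mice over all arrays, and it was lower in ethanol mice by both probes. With probe ILMN_2813487 the level was 8.23 at the lowest, 8.62 at the median and 8.87 at the highest in the 20 ethanol mice, and 8.64, 8.91 and 9.10 in the 12 controls. The groups overlapped, but none of the 20 ethanol mice (0) was above the control median and 11 were below the lowest control. The difference was -0.27 ± 0.05 on the log2 scale (SE; 1.21-fold lower; limma, adjusted p = 0.000339 over all tested probes). With probe ILMN_2813484 the level was 9.61, 10.01 and 10.36 in ethanol mice and 9.97, 10.28 and 10.58 in controls, 2 ethanol mice were above the control median and 9 below the lowest control. Its difference was -0.28 ± 0.07 (SE; adjusted p = 0.00341). These 2 of 11 member probes were the only ones called at a false discovery rate (FDR) below 1%, where 8.27% of all tested probes were called and 4.67% were called lower. With chip as a fixed block, which leaves only chip 3 to compare treatments, the adjusted p of the 2 probes was 0.0192 and 0.0466, and with chip and odd or even position together it was 0.331 and 0.509. In that fit 0 member probes were called, where 0.0196% of all tested probes were at 1% and 0.0491% at 10%. An unadjusted p below 0.05 was found for 4 member probes, and for 974 of all 10187 tested probes.

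At the looser FDR of 10% Dbp and Nr1d2 were also called, both higher in ethanol mice, so that 4 of 11 member probes were called where 25.4% of all tested probes were. Nr1d2, a repressor of Arntl, was 8.78 at the lowest, 9.11 at the median and 9.48 at the highest in ethanol mice and 8.77, 8.98 and 9.13 in controls. Its difference was 0.18 ± 0.06 (SE; limma, adjusted p = 0.0256), and 8 of the 20 ethanol mice were above the highest control. Dbp was 12.09, 12.32 and 12.70 in ethanol mice and 12.04, 12.15 and 12.52 in controls, with a difference of 0.15 ± 0.05 (SE; adjusted p = 0.0468) and 19 of 20 ethanol mice above the control median. With chip as a fixed block both calls were lost, with Dbp at 0.05 ± 0.10 (adjusted p = 0.842) and Nr1d2 at 0.17 ± 0.08 (adjusted p = 0.260). When odd or even position was added, Dbp was at -0.03 ± 0.11 (adjusted p = 0.960) and Nr1d2 at 0.04 ± 0.09 (adjusted p = 0.927). Dbp was also not called with chip as a random block (adjusted p = 0.255) or with median scaling (adjusted p = 0.226).

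The other members did not pass either threshold over all arrays. Tef, the other detected PAR bZIP gene, differed by 0.16 ± 0.07 (SE; adjusted p = 0.108) and Clock by 0.09 ± 0.05 (adjusted p = 0.176). Clock had an uneven spread, since 11 of the 20 ethanol mice were above the highest control. Per2 differed by -0.09 ± 0.07 and -0.10 ± 0.08 with its 2 probes, Per3 by 0.06 ± 0.04, Nr1d1 by -0.06 ± 0.04 and Arntl by -0.03 ± 0.05, with adjusted p between 0.292 and 0.711. These p-values do not show that the levels were alike.

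**Figure D1:**
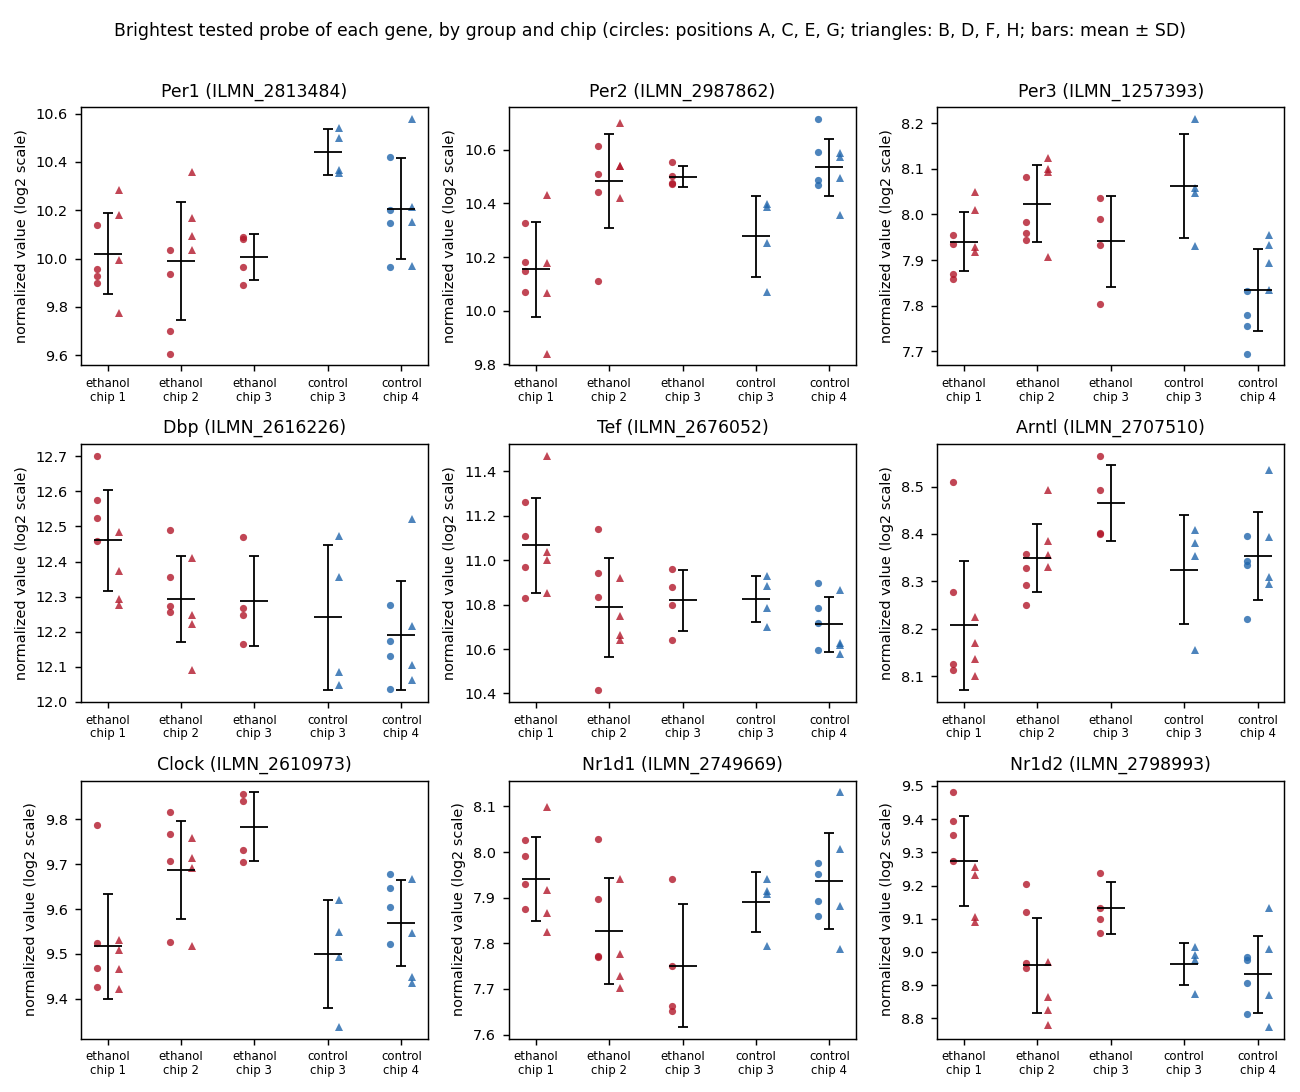
Normalized level (log2 scale) of the brightest tested probe of each of 9 genes on every array, by group and chip, with red for ethanol, blue for control, circles for positions A, C, E and G, triangles for B, D, F and H, and bars for the mean ± SD. Per1 in ethanol mice has about the same mean on chips 1, 2 and 3 (10.02, 9.99 and 10.01) and is below both sets of controls (10.44 and 10.21).

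Within chip 3, where both treatments shared a chip, Per1 was again lower in ethanol mice and Clock was higher. With Per1 probe ILMN_2813484 the ethanol mice A46, A47, A49 and A50 had 10.09, 9.97, 9.89 and 10.08, and the controls C52, C54, C55 and C56 had 10.37, 10.54, 10.50 and 10.36. With probe ILMN_2813487 the ethanol mice had 8.53, 8.61, 8.66 and 8.66 and the controls 8.99, 8.95, 9.06 and 9.10. Every ethanol mouse was below every control by both probes. The differences were -0.43 ± 0.12 and -0.41 ± 0.09 (SE; limma, adjusted p = 0.0466 and 0.0192). No member (0 of 11 probes) was called at an FDR below 1%, where 0.206% of all tested probes were. An unadjusted p below 0.05 was found for 5 member probes, and for 2006 of all 10187 tested probes. A fit to the 8 arrays of chip 3 alone called both Per1 probes at 1%, with adjusted p = 0.00159 and 0.00132. That fit called 319 of all tested probes at 1%, against 21 in the main fit. At 10%, 3 of 11 probes were called, both Per1 probes and Clock, where 6.63% of all tested probes were. When arrays were scaled to a common median instead of quantile normalized, 1 of these calls was left, Per1 ILMN_2813487 (adjusted p = 0.0486), while Per1 ILMN_2813484 had adjusted p = 0.166 and Clock 0.336. That scaling called 161 of all tested probes at 10%, 149 of them lower.

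Clock, the partner of ARNTL, was 9.84, 9.86, 9.71 and 9.73 in ethanol mice A46, A47, A49 and A50 and 9.49, 9.62, 9.34 and 9.55 in controls C52, C54, C55 and C56. The ethanol mice were all above the controls, by 0.28 ± 0.08 (SE; adjusted p = 0.0341). This call at 10% rested on few arrays. Its adjusted p was 0.102, 0.103 and 0.148 without ethanol mouse A46, ethanol mouse A47 and control C55, and that of Per1 ILMN_2813484 was 0.110 to 0.132 without ethanol mouse A47 or A49 or control C54 or C55. Without A47 or C55 the number of calls fell from 3 to 1, and without A46, A49 or C54 to 2. Over all tested probes it fell from 675 to between 197 and 325 without any 1 of these mice. Per1 ILMN_2813487 kept an adjusted p of 0.0236 to 0.0614 without any 1 of the 8 mice. With odd or even position in the fit, the 3 probes had adjusted p between 0.331 and 0.509.

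Of the 11 tested probes, 5 had no overlap between ethanol and control mice on chip 3, where 15.2% of all tested probes had none. Besides the Per1 probes and Clock these were Per2 ILMN_2987862 and Nr1d2, both higher in ethanol mice. Each of the 5 had an exact permutation p = 0.0286 (2-sided), the smallest that 4 mice against 4 allow. Any probe without overlap gets this value, so it adds nothing to the count. Per2 ILMN_2987862 was 10.47 to 10.55 in ethanol mice and 10.07 to 10.40 in controls, whereas Per2 ILMN_2987863 overlapped at 9.92 to 10.19 and 9.58 to 10.06 (exact permutation p = 0.0571). Nr1d2 was 9.06 to 9.24 in ethanol mice and 8.87 to 9.01 in controls. Mean marker levels of other cells also differed on this chip. Besides the olfactory bulb list, the mean level of 9 astrocyte markers did not overlap, at 9.98 to 10.05 in ethanol mice and 9.84 to 9.92 in controls, nor did that of 7 endothelial markers, at 8.91 to 8.98 and 8.81 to 8.89. Of the endothelial markers 1 was higher at an FDR below 1% and 2 at 10%, where 13 and 290 of all 10187 tested probes were. Of the astrocyte markers 1 was higher at 10%. At 10%, 3 of the 10 oligodendrocyte markers were lower and 1 of the 6 olfactory bulb markers was higher. Of 6 tested neuron markers 2 were lower and 1 higher, with a median difference of -0.16 and a range from -0.49 to 0.62. Lower at 10% on this chip were 385 of all 10187 tested probes. The part of these markers in the results on chip 3 was not tested. The median difference was 0.57 over the 6 tested olfactory bulb markers and -0.39 over the 10 oligodendrocyte markers, against 0.00 over all probes. It was only 0.06 over the 9 astrocyte markers, whose differences ranged from -0.14 to 0.56. Over the 7 endothelial markers it was 0.03, with a range from -0.13 to 0.46.

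Between the chips that held 1 treatment each, 8 of 11 member probes were called at an FDR below 10%, where 35.2% of all tested probes were, and 4 at an FDR below 1%, where 15.2% were. Lower in ethanol mice of chips 1 and 2 than in controls of chip 4 were Per1 by both probes, at -0.20 ± 0.08 and -0.21 ± 0.06 (SE; limma, adjusted p = 0.0447 and 0.00601), and Per2 by both probes, at -0.22 ± 0.06 and -0.25 ± 0.08 (adjusted p = 0.00775 and 0.0122). Higher were Per3 by 0.15 ± 0.04 (adjusted p = 0.00628), Nr1d2 by 0.18 ± 0.05 (adjusted p = 0.0078), Dbp by 0.19 ± 0.06 (adjusted p = 0.0205) and Tef by 0.22 ± 0.07 (adjusted p = 0.0222). Arntl, Clock and Nr1d1 were not called, with adjusted p between 0.220 and 0.635. With median scaling the calls at 10% went from 4 higher and 4 lower to 3 higher and 0 lower: the Per1 probes were at -0.12 and -0.13 (adjusted p = 0.423 and 0.174), the Per2 probes had adjusted p = 0.236 and 0.214, and Dbp had 0.106. The calls over all tested probes shifted the same way, from 1690 higher and 1898 lower to 1874 higher and 332 lower. Without control C66, the dimmest array, the number called at 1% fell from 4 to 1, leaving Per3. No member probe (0) was without overlap between the ethanol mice of chips 1 and 2 and the controls of chip 4, where 0.775% of all tested probes were.

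The contrast within chip 3 and the contrast between chips use different mice, and for Per2 and Per3 they differed. Per2 was higher in ethanol mice on chip 3, by 0.22 ± 0.10 and 0.30 ± 0.12 with its 2 probes, and lower between chips. The difference of the 2 contrasts was 0.44 ± 0.12 and 0.55 ± 0.15 (SE; limma, adjusted p = 0.0132 and 0.0127). Per3 went the other way, at -0.12 ± 0.07 on chip 3, with a difference of contrasts of -0.27 ± 0.08 (adjusted p = 0.0223). Clock was the fourth of 4 member probes whose contrasts differed at an FDR below 10%, by 0.25 ± 0.09 (adjusted p = 0.0635), where 16.3% of all tested probes differed. At 1% the count was 0 with limma, where 3.54% of all tested probes differed. An unadjusted p below 0.05 was found for 5 member probes, and for 2611 of all 10187 tested probes. With median scaling 1 call was left at 10%, Per3 (adjusted p = 0.0169), while the Per2 probes had adjusted p = 0.225 and 0.155 and Clock 0.601. Of all tested probes 943 differed at 10% with that scaling, 63 of them higher and 880 lower. For Per1 the 2 contrasts had the same direction and their difference was -0.23 ± 0.14 and -0.20 ± 0.11 (adjusted p = 0.320 and 0.245), and for Nr1d2 it was -0.01 ± 0.10 (adjusted p = 0.945).

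**Figure D2:**
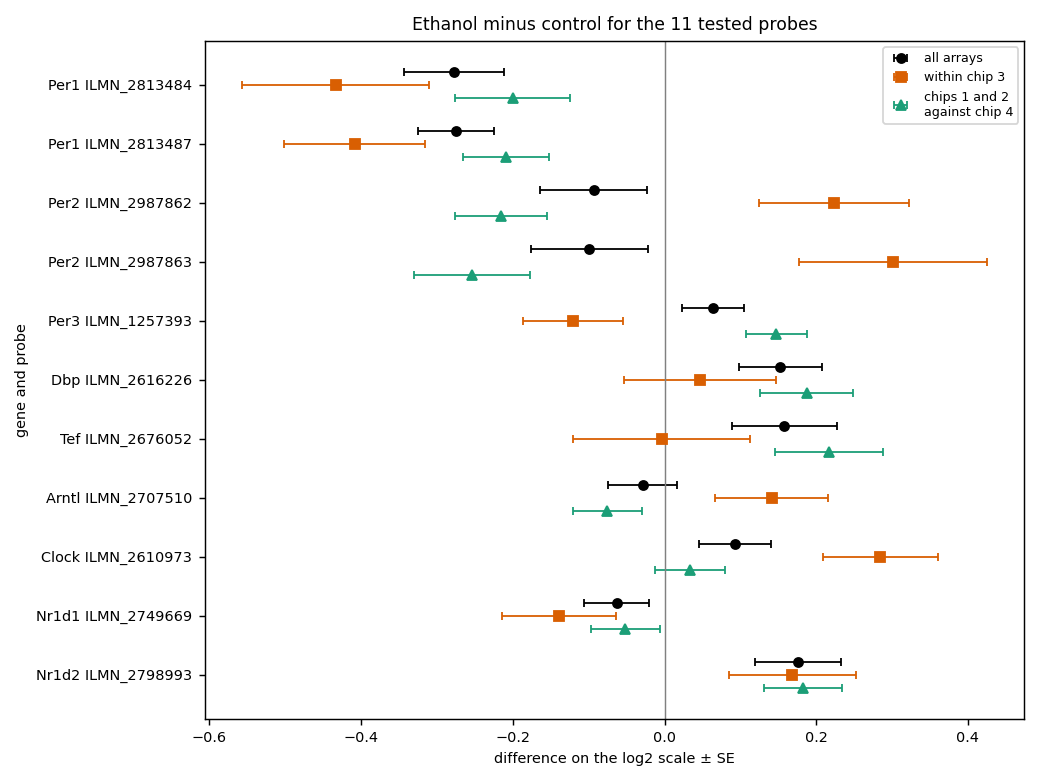
Ethanol minus control difference (log2 scale) ± SE for the 11 tested probes over all 32 arrays (black), within chip 3 (orange) and between chips 1 and 2 and chip 4 (green). The 2 Per1 probes, Dbp, Clock, Nr1d1 and Nr1d2 keep 1 direction in all 3 comparisons, which share arrays, and the 2 Per2 probes lie at 0.22 and 0.30 on chip 3 and at -0.22 and -0.25 between chips.

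The clock genes also differed between chips whose mice had the same treatment. Among ethanol mice, Nr1d2 was 9.09 at the lowest, 9.26 at the median and 9.48 at the highest on chip 1 and 8.78, 8.96 and 9.20 on chip 2, a difference of 0.31 ± 0.06 (SE; limma, adjusted p = 0.00567). It was the 1 member of 11 probes called at an FDR below 1%, where 0.216% of all tested probes were. Per2 ILMN_2987862 was lower on chip 1, at 9.84, 10.16 and 10.43 against 10.11, 10.52 and 10.70, a difference of -0.33 ± 0.07 (adjusted p = 0.0114). Tef was higher on chip 1 by 0.28 ± 0.08 (adjusted p = 0.0704) and Clock lower, at -0.17 ± 0.05 (adjusted p = 0.0892). At an FDR below 10%, 4 member probes were called, where 4.01% of all tested probes were. With median scaling 2 were, Per2 ILMN_2987862 and Clock (adjusted p = 0.0955 for both), while Nr1d2 had adjusted p = 0.218 and Tef 0.432. That scaling called 108 of all tested probes at 10%, 104 of them lower. The tested REV-ERB and PAR bZIP genes all had a higher mean on chip 1, with Dbp at 0.17 ± 0.07 and Nr1d1 at 0.11 ± 0.05, and Arntl, Clock, Per2 and Per3 a lower one, with Arntl at -0.14 ± 0.05 and Per3 at -0.08 ± 0.05. Those 4 (Dbp, Nr1d1, Arntl and Per3) and the second Per2 probe, at -0.20 ± 0.09, did not pass (adjusted p = 0.156 to 0.381). Per1 differed by 0.03 with both probes (adjusted p = 0.915 and 0.875).

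Among controls, Per3 was higher on chip 3 than on chip 4, at 8.21, 8.06, 8.05 and 7.93 in C52, C54, C55 and C56 against 7.70 to 7.95 on chip 4, by 0.23 ± 0.06 (SE; limma, adjusted p = 0.0065). It was the 1 member called at an FDR below 1%, where 6.43% of all tested probes were. Per2 was lower on chip 3 by both probes, at -0.26 ± 0.09 and -0.33 ± 0.11 (adjusted p = 0.0377 and 0.0362), which made 3 member probes called at 10%, where 21% of all tested probes were. Per1 had differences of 0.23 ± 0.11 and 0.19 ± 0.08 (adjusted p = 0.137 and 0.107). With median scaling the calls at 10% went from 1 higher and 2 lower to 3 higher and 0 lower: the Per2 probes had adjusted p = 0.516 and 0.404, while Per1 was higher on chip 3 by 0.37 ± 0.13 and 0.34 ± 0.09 (adjusted p = 0.0583 and 0.0137). The calls over all 10187 tested probes shifted the same way, from 1071 higher and 1065 lower to 1977 higher and 64 lower. Their median difference went from -0.01 to 0.09. These controls also enter the difference of contrasts given above, so the values are not separate from it.

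**Figure D3:**
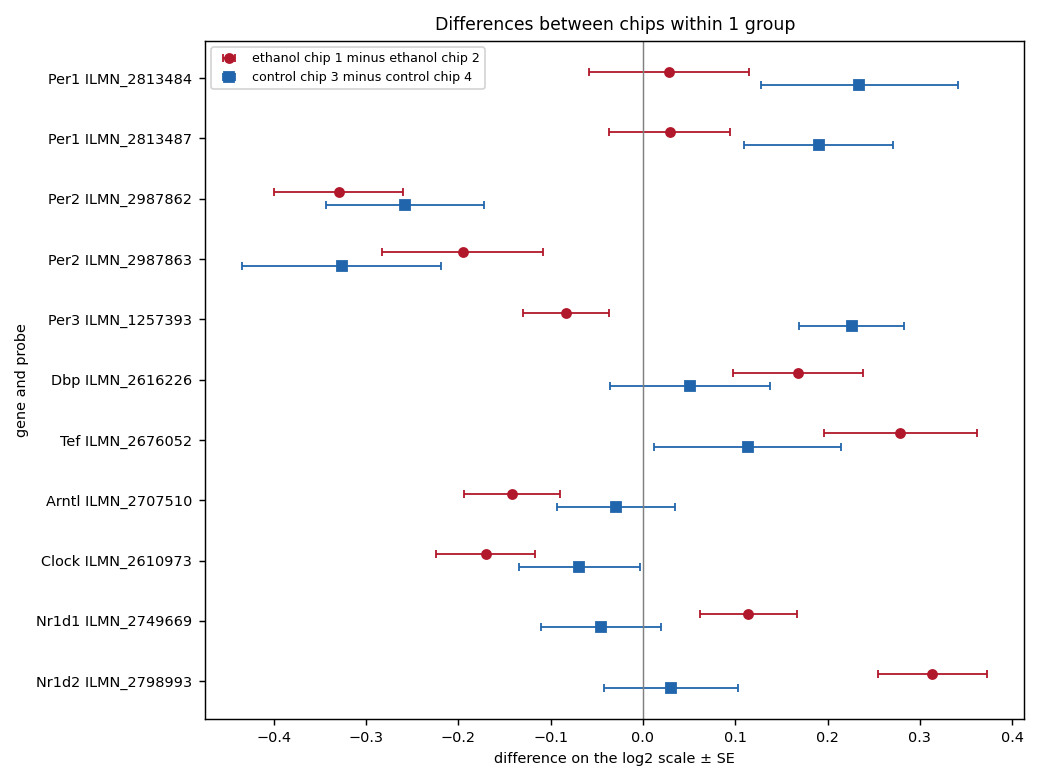
Difference between chips (log2 scale) ± SE for the 11 tested probes, with ethanol mice of chip 1 minus chip 2 in red and controls of chip 3 minus chip 4 in blue. Nr1d2 stands at 0.31 and Per2 ILMN_2987862 at -0.33 in the ethanol mice, and Per3 at 0.23 in the controls.

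Position on the chip was compared on chips 1, 2 and 4, where each treatment lay at both odd positions (A, C, E, G) and even positions (B, D, F, H), 12 arrays each. No member (0 of 11) was called at an FDR below 1% with limma, where 3.71% of all tested probes were. At 10%, 3 were called, where 20.1% of all tested probes were. An unadjusted p below 0.05 was found for 4 members, and for 2897 of all 10187 tested probes. With median scaling 0 members were called at 10%, where 582 of all tested probes were. An unadjusted p below 0.05 was then found for 2 members and 2004 of all tested probes. Per1 was lower at odd positions with ILMN_2813487, at -0.14 ± 0.05 (SE; adjusted p = 0.0602), while ILMN_2813484, at -0.16 ± 0.07, did not pass (adjusted p = 0.145). Per3 was lower, at -0.09 ± 0.03 (adjusted p = 0.0641) and Nr1d2 higher by 0.13 ± 0.05 (adjusted p = 0.0682). For all 3 genes this is the direction of the ethanol difference on chip 3, where the ethanol mice held the odd positions. The Per1 differences on chip 3 were -0.41 and -0.43, and with position in the fit they were -0.26 and -0.28. That of Per3 went from -0.12 to -0.03 ± 0.07 (SE; limma, adjusted p = 0.940). That of Nr1d2 went from 0.17 to 0.04 ± 0.09 (adjusted p = 0.927).

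Levels of the clock genes were then correlated across mice within each treatment, with the brightest probe of each of 9 genes, which gave 36 pairs in each group and 72 in all. No pair passed after Benjamini-Hochberg adjustment over the 72 (0 at an adjusted p below 0.05; the lowest was 0.0947 for Pearson's r and 0.147 for Spearman's rho). At an unadjusted p below 0.05 there were 11 pairs in ethanol mice and 6 in controls. The 4 pairs that were among both had the same sign in both: Dbp with Nr1d2 was positive, Per2 with Clock positive, Per2 with Dbp negative and Dbp with Clock negative. These permutations moved mice across chips, so differences between chips enter r and p. Centred on chip and permuted within it, the 4 pairs in that order had r = 0.28, -0.02, -0.14 and -0.17 in ethanol mice (permutation p = 0.263, 0.938, 0.591 and 0.504). In controls r was 0.71, 0.57, -0.93 and -0.67 (permutation p = 0.00566, 0.0847, 4e-05 and 0.0272). Of all 36 pairs only 21 had the same sign of r in both groups. Per2 with Per3 had r = -0.74 in controls (permutation p = 0.00686, adjusted p = 0.0947) and 0.33 in ethanol mice (permutation p = 0.157, adjusted p = 0.472). In controls rho for this pair was -0.54 (permutation p = 0.0756, adjusted p = 0.302). Within chip 4, which held 8 of the 12 controls, r was only -0.02. With values of the controls centred on chip it was -0.39 (permutation p = 0.260, adjusted p = 0.728). With the log2 of the signal, Per3 with Nr1d2 had r = -0.64 in ethanol mice (permutation p = 0.00259, adjusted p = 0.0965) and 0.26 in controls (permutation p = 0.407, adjusted p = 0.656). Whether r differed between the treatments was not tested for any pair.

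Dbp and Nr1d2, both E-box targets, had r = 0.53 in ethanol mice (permutation p = 0.0175, adjusted p = 0.140; rho = 0.48, permutation p = 0.0346, adjusted p = 0.218) and 0.72 in controls (permutation p = 0.00789, adjusted p = 0.0947; rho = 0.62, permutation p = 0.0348, adjusted p = 0.218). Without the 2 arrays farthest from the median of Dbp, r was 0.28 and 0.61, so in ethanol mice the relation rested on those arrays. Within chips it was 0.73 on chip 1, -0.07 on chip 2 and 0.83 on chip 4. Per2 and Dbp had r = -0.49 in ethanol mice (permutation p = 0.0279, adjusted p = 0.168; rho = -0.57, permutation p = 0.00988, adjusted p = 0.147) and -0.73 in controls (permutation p = 0.00634, adjusted p = 0.0947; rho = -0.64, permutation p = 0.0273, adjusted p = 0.218). Without the 2 arrays farthest from the median of Per2, r was -0.54 and -0.56. Within chips it was -0.14 on chip 1, -0.14 on chip 2 and -0.91 on chip 4, so the relation did not hold within the ethanol chips.

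Clock had r = 0.51 with Per2 in ethanol mice (permutation p = 0.0238, adjusted p = 0.168; rho = 0.45, permutation p = 0.0464, adjusted p = 0.218) and 0.60 in controls (permutation p = 0.0369, adjusted p = 0.174; rho = 0.71, permutation p = 0.0123, adjusted p = 0.147). Without the 2 arrays farthest from the median of Per2, r was 0.39 and 0.67. Within chips it was 0.08, -0.07 and 0.66 on chips 1, 2 and 4. Clock had r = -0.48 with Dbp in ethanol mice (permutation p = 0.0304, adjusted p = 0.168; rho = -0.45, permutation p = 0.0467, adjusted p = 0.218) and -0.67 in controls (permutation p = 0.0164, adjusted p = 0.140; rho = -0.70, permutation p = 0.0145, adjusted p = 0.149). Without the 2 arrays farthest from the median of Dbp, r was -0.29 and -0.69. Within the same chips it was -0.20, -0.31 and -0.68. In both pairs the relation was weaker within the 2 ethanol chips than over all ethanol mice. Chip 3 held 4 mice of each treatment, too few for a value.

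**Figure D4:**
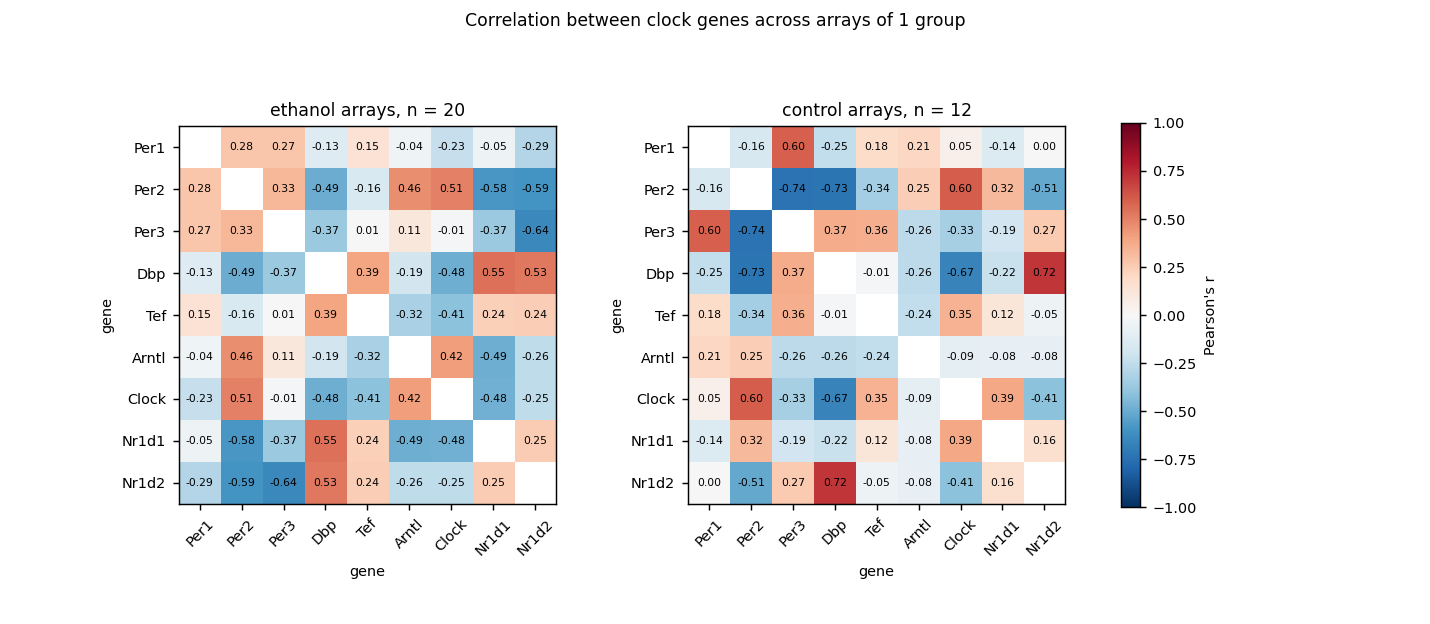
Pearson's r between the brightest probes of 9 clock genes across the 20 ethanol arrays (left) and the 12 control arrays (right), with red for positive and blue for negative values. Dbp with Nr1d2 is 0.53 and 0.72 and Per2 with Dbp -0.49 and -0.73, and no pair passes the adjusted threshold.

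**Figure D5:**
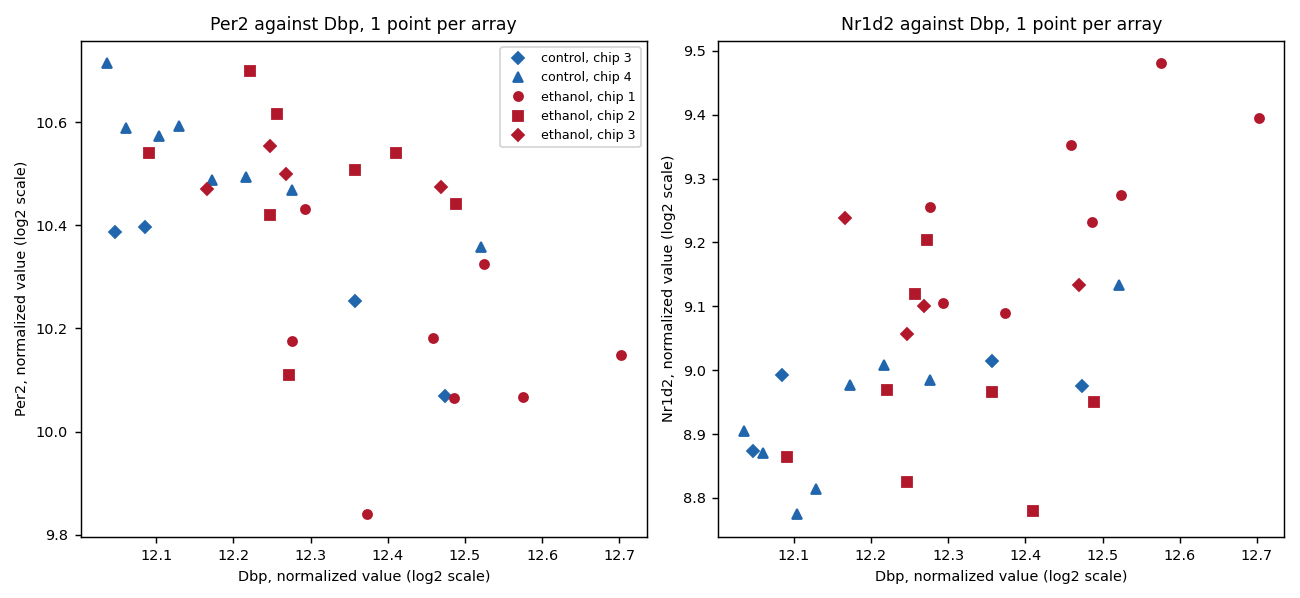
Level (log2 scale) of Per2 (left) and Nr1d2 (right) against Dbp on each of the 32 arrays, with red for ethanol, blue for control and 1 marker shape per chip. The ethanol mice of chip 1 have a mean Dbp of 12.46 and a mean Nr1d2 of 9.27, against 12.29 and 8.96 on chip 2.

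The spread within 1 treatment, taken over all its chips, differed among members. It holds differences between chips as well as between mice. For Per2 ILMN_2987862 the SD was 0.04 to 0.18 when taken within single sets of 1 treatment and chip. The within-group SD of Per2 was 0.21 and 0.23 with its 2 probes, of Tef 0.20 and of Per1 ILMN_2813484 0.19, which lay at percentiles 94.7, 96.6, 94.3 and 92.8 of all tested probes, whose median SD was 0.12. Per1 ILMN_2813487 had an SD of 0.14, at percentile 73.8. Nr1d2 and Dbp lay at percentiles 84.8 and 82.8. Arntl, Nr1d1 and Per3 lay at 58.6, 47.3 and 40.4.

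Other genes of the clock were read over all arrays in the same way. Of 19 listed genes 10 were tested, each by its brightest probe. With limma 0 were called at an FDR below 1%, where 8.27% of all tested probes were, and 1 at 10%, where 25.4% were. An unadjusted p below 0.05 was found for 2 (Npas2 and Usp2), and for 3240 of all 10187 tested probes. The gene called at 10% was Usp2, a deubiquitinase, at 0.24 ± 0.10 (SE; limma, adjusted p = 0.0916). The repressor Cry2 differed by -0.11 ± 0.06 (adjusted p = 0.202), Npas2, a relative of Clock, by -0.12 ± 0.05 (adjusted p = 0.102), Bhlhe40 by -0.07 ± 0.06 (adjusted p = 0.453), Rora by 0.01 ± 0.04 (adjusted p = 0.864), Rorb by 0.05 ± 0.05 (adjusted p = 0.519) and Btrc by 0.03 ± 0.05 (adjusted p = 0.702). The kinase genes Csnk1d and Csnk1e gave different values by probe. Csnk1d ILMN_1231035 was higher by 0.17 ± 0.04 (adjusted p = 0.00628), while its brightest probe ILMN_3103652 differed by -0.08 ± 0.05 (adjusted p = 0.295). Csnk1e differed by 0.23 ± 0.09 with ILMN_2689333 (adjusted p = 0.0725) and by -0.06 ± 0.05 with ILMN_2712792 (adjusted p = 0.427). Between ethanol chips 1 and 2, Ciart, a repressor of CLOCK and ARNTL, was higher on chip 1 by 0.32 ± 0.08 (adjusted p = 0.0345) with its brightest probe, and Cry2 by 0.25 ± 0.07 (adjusted p = 0.0451). Of the 10 tested genes of this list, 2 were higher and 1 lower on chip 1 at 10%, where 4.01% of all tested probes were called. Their differences ranged from -0.21 to 0.32. Of 12 clock output genes 7 were tested, and Ppargc1a, a coactivator of energy metabolism, was called at 10%, at 0.36 ± 0.10 (adjusted p = 0.0107). It was the 1 gene of that list called at 10%, where 25.4% of all tested probes were.

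Per1 is also a target of neuronal activity and of glucocorticoids, so genes of those responses were read beside it. Of 12 immediate early genes 9 were tested, and 3 were lower in ethanol mice over all arrays at an FDR below 1% and 0 higher, where 4.67% of all tested probes were lower: Arc, at -0.52 ± 0.12 (SE; limma, adjusted p = 0.00214), Fosb, at -0.15 ± 0.03 (adjusted p = 0.00294), and Junb, at -0.21 ± 0.06 (adjusted p = 0.00765). Of 12 glucocorticoid response genes 10 were tested, and 3 were lower and 0 higher: Mt1, a metallothionein, at -0.25 ± 0.04 (adjusted p = 0.000199), Ddit4, an inhibitor of mTOR signalling, at -0.32 ± 0.06 (adjusted p = 0.000376), and Sult1a1, a sulfotransferase, at -0.23 ± 0.06 (adjusted p = 0.00347). Fkbp5, a co-chaperone of the glucocorticoid receptor, was lower at 10%, at -0.22 ± 0.06 (adjusted p = 0.0132), as 1376 of all 10187 tested probes were. The median difference was -0.12 over the 9 immediate early genes and -0.13 over the 10 glucocorticoid response genes, against 0.00 over all tested probes. Within chip 3, 0 of the 9 immediate early genes and 2 of the 10 glucocorticoid response genes were called lower at 10%. Of all 10187 tested probes 385 were lower there. Among controls alone, 3 of the 9 immediate early genes were lower on chip 3 than on chip 4 at 10% and 2 at 1%, and 1 of the 10 glucocorticoid response genes was higher at 1%. Of all tested probes 1065 were lower at 10% and 293 at 1% among controls, and 362 were higher at 1%.

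For each member the non-member genes whose level was most like it across the 32 arrays were found after the mean of each group and chip was removed. Per1 was most like Ncdn (r = 0.79), Ddhd1 (r = 0.78) and Pcnxl2 (r = 0.76), which were the closest of any member. Per2 was most like Camk1g (r = 0.69), Tef like Tpd52l1 (r = 0.70), Clock like B3galt6 (r = 0.68), Nr1d1 like Gca (r = 0.68), Per3 like Cbr3 (r = 0.68), Nr1d2 like Msh6 (r = 0.67), Dbp like Lrrc6 (r = 0.66) and Arntl like Wdr18 (r = 0.64). All points share array, chip and normalization, and the genes were picked as the highest of all tested, so these values are a description.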

How the data were processed

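The deposited table gave, per the file headers, the bead signal intensity of each probe on each Illumina MouseRef-8 array, not normalized, with its detection p-value, bead standard error and bead number. The authors' own processing, with lumi and limma (versions not given in the sources used here), is not in that table. Here the intensities were variance stabilized with the bead standard errors, written anew because lumi was not installed, quantile normalized and kept where the detection p-value was below 0.01 on at least 24 of 32 arrays. The stabilized scale is close to log2 for bright probes and compressed for dim ones. limma 3.58.1 in R 4.3.3 was fitted to all tested probes, with group means or means per group and chip, and the Benjamini-Hochberg adjustment ran over all of them. The main threshold was an FDR of 1%, with 10% as a second. Correlations used 100000 permutations in Python 3.11.15 with scipy 1.17.1. The number of arrays limits the precision. The fits were tested on simulated data.

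The 10 members and the gene lists were chosen with earlier results of these data known. The text names every tested member probe, every listed gene called at 1% over all arrays or in the list of other clock genes, and the genes most like each member, of which 1 to 3 are given here. Cell type, blood and striatum marker lists were also read, beside the 8.27% of all tested probes called at 1% over all arrays. Over all arrays, 1 of 9 tested astrocyte markers was higher (Aqp4, 0.53 on the log2 scale, adjusted p = 0.00109 with limma) and 1 of 6 neuron markers lower (Slc17a7, -0.27, adjusted p = 0.00435) at 1%, and 0 of the 10 oligodendrocyte, 9 microglia, 7 endothelial, 6 olfactory bulb, 5 striatum and 3 blood markers were called. Alternatives were the scale, background correction, scaling, filter, chip and position terms, array weights and left-out arrays. Those for comparisons between chips of 1 treatment and for the difference of contrasts were chosen after seeing the data. Probe coordinates were not used, because the 2 probes of Nr1d2 were placed too far apart for 1 gene and the build was not stated.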

Additional observations from a re-analysis of the deposited data

Results flagged for a closer look

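Each tested probe was looked at on each chip and treatment for 1 array far from the rest, 55 sets in all, and 2 stood out, where chance gives about 1 in 20. Both were on chip 1 in ethanol mice. Arntl was 8.51 in mouse A9 and 8.28 in the next highest, a gap of 0.568 of the range of the 8 mice. Clock was 9.79 in mouse A7 and 9.53 in the next highest, a gap of 0.698 of the range.

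The ethanol difference on chip 3 and that between chips differed for 4 member probes at an FDR below 10%: by 0.44 and 0.55 for the Per2 probes ILMN_2987862 and ILMN_2987863, by -0.27 for Per3 and by 0.25 for Clock, on the log2 scale. At that threshold 16.3% of all tested probes differed. With median scaling Per3 alone of the 4 passed at 10%. The cause was not tested.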

How the results depend on the processing

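No paired analysis was possible because the mouse numbers of the ethanol and control groups do not overlap. Over all arrays the number of member probes called was 2, and it was 0 with median scaling, 1 with chip as a random block, 0 with chip as a fixed block, 0 with chip and position together and 4 at an FDR below 10%. In the same order, 842, 88, 79, 21, 2 and 2584 of all 10187 tested probes were called. Per1 stayed lower in ethanol mice in each of these fits. Within chip 3 the number was 0, 2 in the fit to its 8 arrays alone and 3 at 10%, and it was 0 without each of the 8 mice in turn. Over all tested probes these numbers were 21, 319, 675 and 0 to 23. Between chips the number was 4, and it was 1 with normexp background correction, 1 with median scaling, 1 without control C66 and 8 at 10%. Over all tested probes these numbers were 1550, 1409, 718, 1274 and 3588. At 10% the number of member probes was 4 for the difference of contrasts, 4 for ethanol chips 1 and 2, 3 for the 2 sets of controls and 3 for position. Over all tested probes these numbers were 1661, 409, 2136 and 2051. For ethanol chips 1 and 2 the number of member probes at 1% was 1, and it was 0 with normexp and 0 with median scaling, and at 10% it was 2 with each. Over all tested probes these numbers were 22, 11 and 0 at 1%, and 274 and 108 at 10%. The number of correlated pairs rose from 0 to 1 with median scaling, with values centred on chip and with values centred on chip and position.

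Directions turned as follows. Over all arrays, Arntl was 0.0040 with median scaling, 0.0086 with chip as a random block, 0.14 with chip as a fixed block and 0.16 with chip and position. With chip as a fixed block, Per2 was 0.22 and 0.30, Per3 -0.12 and Tef -0.0040, and with position added Per2 was 0.23 and 0.43, Per3 -0.029, Dbp -0.032 and Tef -0.042. Within chip 3, Dbp was -0.032 with position, and when 1 mouse was left out Dbp ranged from -0.018 to 0.12 and Tef from -0.051 to 0.056. With median scaling, Nr1d1 was 0.0033 between chips, the Per1 probes were -0.084 and -0.048 for ethanol chip 1 against chip 2, Arntl, Clock and Nr1d1 were 0.085, 0.070 and 0.038 between the controls, and Per2 ILMN_2987862 and Arntl were 0.085 and 0.011 for position. With median scaling r in controls was 0.53 for Per2 with Dbp and 0.66 for Dbp with Clock. With values centred on chip r for Per2 with Clock in ethanol mice was -0.020, and with position also centred it was -0.017, while r for Dbp with Nr1d2 in ethanol mice was -0.28. Centred on chip, Per2 with Dbp in controls was -0.93 (adjusted p = 0.00288). The cause was not tested.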
